A study of Mus musculus with 2 samples.

Results

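The 9 genes described here encode parts of the T cell receptor machinery (Cd3d, Cd3e, Cd3g, Cd4, Cd8a, Cd8b1, Zap70 and Lat) and the adhesion receptor Cd2. They were chosen by name, out of 22350 protein-coding genes on chromosomes 1 to 19 and X, by a rule that uses no measured value, although with earlier results of these data known. Each DNase I hypersensitive site (DHS) that overlapped one of these genes or the 50 kb on either side was taken, which gave 56 distinct DHS of the 47474 on these chromosomes. The genes mark T cells and the sample was enriched for B cells, so the question is what chromatin of T cell genes the list holds, at promoters, in gene bodies and away from genes. The sample was splenic B cells of Trp53+/+ mice of strain C57/Bl6, mock treated and 8 weeks old, selected magnetically with beads against B220, a marker of B cells that some other blood cells also carry. The series has 1 DNaseI library and 1 input library with no replicates, and the values come from the peak list of the DNaseI library. The number of animals is not in the labels, there is no second condition, and the sequencing depth is unknown, so a gene without a DHS is one where none was called. A site open in few cells and a site weakly open in all cells cannot be told apart in such a list.

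The T cell receptor recognises antigen through its alpha and beta chains, which have almost no signalling tail of their own. The CD3 proteins carry the signal into the cell, the coreceptors CD4 and CD8 bring the kinase Lck to the complex, Lck marks the CD3 and zeta chains, and ZAP-70 binds there and phosphorylates the scaffold LAT. DNase I cuts DNA most readily where nucleosomes are displaced, as at active promoters and enhancers, and a DHS is a stretch where such cuts pile up.

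Of the 9 genes, Cd2 and Lat had a promoter DHS, meaning one that overlapped the stretch from 5 kb before to 2 kb after an annotated transcription start site (TSS). This was 22.2% of the genes (exact binomial 95% interval 2.81 to 60.0%), beside 57.0% of all protein-coding genes. Both also had one in no other gene's promoter, a class that held 38.8% of all genes. Cd2 was the only one of the 9 whose start was itself covered by a DHS, as was the case for 40.6% of all genes. A DHS overlapped the gene body of 4 genes, Cd3d, Zap70, Lat and Cd2 (44.4%, interval 13.7 to 78.8%), beside 57.9% of all genes. For Cd3d, Zap70 and Cd2 it lay outside every promoter (33.3%, interval 7.49 to 70.1%), as for 19.9% of all genes. Each interval takes in the share of all genes, so these counts alone do not set the 9 genes apart, and they cover counting error only. Of the 7 genes without a promoter DHS, Cd3d and Zap70 had one in the gene body, while 9.14% of all genes without a promoter DHS did. None of the 9 starts was CpG-rich. In all, 85.6% of CpG-rich starts had a promoter DHS and 39.2% of the other starts, so the share to read the 9 genes against is the lower one, and it too is inside their interval.

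The stretches of sequence shown next are the ones these counts turn on, read from the mm9 genome 5′ to 3′ on the strand of the gene. First come the 250 bases before the start of Cd2 and Lat, which have a promoter DHS, and of Cd3e, Cd8a and Zap70, which have none. Capitals mark any of 10 short words searched on both strands. These were the PU.1 type word GAGGAAGT and the ETS type word CCGGAAGT of Ets family factors. TGTGGTT is the core word of Runx factors. The E boxes, bound by basic helix-loop-helix proteins, are the palindrome CAGCTG and, as the other form, CAGGTG with its complement. For GATA factors the word was AGATAA, for the Ikaros family of zinc finger proteins it was TGGGAA, and for the TCF and LEF factors it was CTTTGAT in full. The TATA box was searched as TATAAA and the cAMP element, bound by CREB proteins, as TGACGTCA. The PU.1 and ETS words share the letters GGAAGT and cannot lie on the same site.
Cd2 promoter, chr3:101091863-101092112, minus strand: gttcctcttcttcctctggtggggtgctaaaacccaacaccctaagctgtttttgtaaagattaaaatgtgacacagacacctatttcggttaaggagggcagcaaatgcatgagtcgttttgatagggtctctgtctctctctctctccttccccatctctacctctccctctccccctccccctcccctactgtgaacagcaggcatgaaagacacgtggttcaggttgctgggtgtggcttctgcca
Lat promoter, chr7:133513058-133513307, minus strand: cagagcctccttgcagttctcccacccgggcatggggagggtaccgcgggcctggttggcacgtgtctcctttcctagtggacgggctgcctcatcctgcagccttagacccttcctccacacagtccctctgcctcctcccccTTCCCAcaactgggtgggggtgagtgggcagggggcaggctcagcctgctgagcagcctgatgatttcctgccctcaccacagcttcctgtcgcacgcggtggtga
Cd3e promoter, chr9:44817674-44817923, minus strand: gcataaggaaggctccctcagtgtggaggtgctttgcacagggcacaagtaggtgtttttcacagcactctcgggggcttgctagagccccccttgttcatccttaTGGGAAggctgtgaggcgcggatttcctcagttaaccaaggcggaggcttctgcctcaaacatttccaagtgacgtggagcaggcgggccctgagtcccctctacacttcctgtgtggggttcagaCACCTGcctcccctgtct
Cd8a promoter, chr6:71323171-71323420, plus strand: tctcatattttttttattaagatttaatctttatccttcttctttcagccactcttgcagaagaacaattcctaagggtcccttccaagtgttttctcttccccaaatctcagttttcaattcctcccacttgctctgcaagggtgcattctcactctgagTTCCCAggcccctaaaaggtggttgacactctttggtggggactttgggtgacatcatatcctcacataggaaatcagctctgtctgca
Zap70 promoter, chr1:36818445-36818694, plus strand: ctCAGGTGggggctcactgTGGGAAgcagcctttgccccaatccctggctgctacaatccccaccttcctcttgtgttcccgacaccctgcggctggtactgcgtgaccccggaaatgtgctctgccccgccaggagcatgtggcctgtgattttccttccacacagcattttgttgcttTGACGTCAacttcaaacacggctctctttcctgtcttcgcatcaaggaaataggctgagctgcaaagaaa
All 250 bases at Cd2 lay in a DHS and held none of the words. At Lat 177 bases lay in a DHS, and the Ikaros type word was present on the opposite strand. The Cd3e, Cd8a and Zap70 stretches had no base in a DHS and held between 1 and 3 words each. In these 5 stretches the words thus did not follow the presence of a DHS. Their GC content was 42.8% at Cd8a, 50.8% at Cd2, 55.2% at Zap70, 57.2% at Cd3e and 64.8% at Lat.

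The CD3 subunits are 3 related membrane proteins, delta, epsilon and gamma, that pair with one another and flank the antigen-binding chains. Their genes lie side by side over 40019 bp of chromosome 9. Cd3g (chr9:44777655-44788514) and Cd3d (chr9:44789876-44795135) run away from each other from starts 1362 bp apart, with 0 DHS between them. Cd3e (chr9:44806826-44817673) faces Cd3d. None of the starts was near a DHS, the nearest being 3681 bp away for Cd3d, 5043 bp for Cd3g and 13431 bp for Cd3e. For all protein-coding genes this distance had a median of 565 bp, with quartiles of 0 and 53436 bp. The 19157 bp around the Cd3d and Cd3g starts held no DHS, and neither did 35229 bp around the Cd3e start.

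Within the 3 genes there was 1 DHS, at the 3′ end of Cd3d (chr9:44793557-44795874). The stretch behind CD3D is known from other work as the site of a T cell enhancer. This DHS overlapped exons 3 to 5 of the 5 exons of Cd3d and ran 739 bp past the end of the gene. Its score, a value given by the authors to each peak with no stated scale, was 122. That is higher than the score of 89.1% of all DHS and of 96.7% of distal ones, those in no promoter. At 2318 bp it was also wider than 96.6% of all DHS. The CD3 gene cluster thus held a wide DHS of high score, although none of its promoters had one. The first 300 bases past the gene end, all inside this DHS, held an E box and an Ikaros type word, given in capitals.
Cd3d, past the gene end, chr9:44795136-44795435, plus strand: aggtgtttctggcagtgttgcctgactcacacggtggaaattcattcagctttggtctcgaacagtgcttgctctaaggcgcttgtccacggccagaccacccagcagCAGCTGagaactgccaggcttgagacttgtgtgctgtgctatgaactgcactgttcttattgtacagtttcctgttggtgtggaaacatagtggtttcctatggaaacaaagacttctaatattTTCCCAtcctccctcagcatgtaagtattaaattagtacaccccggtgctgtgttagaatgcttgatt

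Upstream of Cd3e, between it and Mpzl2, lay 3 intergenic DHS. The one 13.7 kb before the Cd3e start (chr9:44831104-44831698) had a score of 65.0, above that of 87.8% of distal DHS. The other two, 20.7 and 21.2 kb before the start, scored 13.9 and 20.3 and were separated by 70 bp. A further DHS, with a score of 43.6, lay in an intron of Mpzl2. The remaining DHS of the 3 windows were in promoters of neighbours, with scores of 122 at Atp5l, 111 and 43.3 at Ube4a, 24.03 at Mpzl2 and 76.3 at Mpzl3. Cd3d, Cd3g and Cd3e had 6, 6 and 9 DHS in their windows, most of them shared, since the windows overlap.

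CD4, the coreceptor of helper T cells for MHC class II, had no DHS in its promoter or anywhere in its gene (chr6:124814710-124838239), whose first intron holds the known Cd4 silencer. The DHS-free stretch around its start was 34003 bp long. Its window held 13 DHS, but 11 of them were in promoters of other genes. These were a DHS shared by Usp5 and Cdca3 with a score of 382, one at Gnb3 with 19.97, one at Gpr162 with 15.3, those at Leprel2 of up to 53.9, those at Ptms and A230083G16Rik of up to 84.2, and a pair at Mlf2 with 98.5 and 105. The number of DHS near Cd4 was therefore mostly that of its neighbours.

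The other two DHS were upstream of Cd4 and intergenic, between it and Lag3, whose product binds the same ligand as CD4. One, 10.1 kb before the Cd4 start (chr6:124848151-124848484), had a score of 11.7 and the lowest width in the list, 334 bp. The second, 15.6 kb before the start (chr6:124853345-124854350), had a score of 288, above that of 98.9% of all DHS and 99.8% of distal ones. It was the highest score of the 33 DHS in the windows that were not in another gene's promoter. This DHS lay just past the annotated end of Lag3. The nearest annotated TSS of a protein-coding gene, 6222 bp from the centre of the DHS, was that of a Lag3 transcript and not of Cd4. The central 300 bases are printed because of this score, on the strand of Cd4, with an E box and a match to a CTCF word in capitals.
Cd4 upstream DHS, centre, chr6:124853698-124853997, minus strand: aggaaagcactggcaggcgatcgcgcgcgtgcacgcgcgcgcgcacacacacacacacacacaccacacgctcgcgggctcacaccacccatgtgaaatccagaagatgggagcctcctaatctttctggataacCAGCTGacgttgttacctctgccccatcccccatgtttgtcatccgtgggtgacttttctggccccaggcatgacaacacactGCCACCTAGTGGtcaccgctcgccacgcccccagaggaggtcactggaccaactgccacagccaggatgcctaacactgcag
CTCF is a DNA-binding protein of chromatin loop anchors and insulators, and the CTCF word was searched after the scores had been seen. It was searched in the central 300 bases of each DHS only. Without a mismatch, on either strand, it was found in 5 of the 56 DHS (8.93%), beside 3.44% of all DHS and 4.61% of distal DHS. Besides the DHS upstream of Cd4 these were the DHS 24.3 kb before Zap70, that in the Mpzl2 intron, the most distant one downstream of Lat, and a Leprel2 promoter DHS with a score of 40.4. With up to 1 mismatch the word was in 11 of the 56 DHS (19.6%), beside 10.1% of all DHS and 12.3% of distal DHS. With 5 DHS the share without a mismatch rests on few sites, and a word match is not a measurement of binding.

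Cd8a and Cd8b1 encode the chains of CD8, the coreceptor of cytotoxic T cells for MHC class I. The genes lie in the same direction over 56336 bp of chromosome 6, and 0 DHS were called in this span, which includes the stretch where the E8 enhancers of the locus are known. The DHS-free stretch ran over 121783 bp, and 93.9% of the 47454 gaps between neighbouring DHS were shorter (median gap 7211 bp). The assembly has no unread bases there. Cd8a (chr6:71323421-71329165) was the only one of the 9 genes with 0 DHS in its window, which also holds part of Rmnd5a, a subunit gene of a ubiquitin ligase. Its nearest DHS was 56029 bp from its start. Cd8b1 (chr6:71272830-71287471) had 2 in its window. One, 6.06 kb before its start in an intron of Smyd1 (chr6:71266159-71267392), had a score of 10.7, higher than that of 6.14% of all DHS, and the other was the Krcc1 promoter with 211.4. Neither lay in or between the Cd8 genes.

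**Figure D1:**
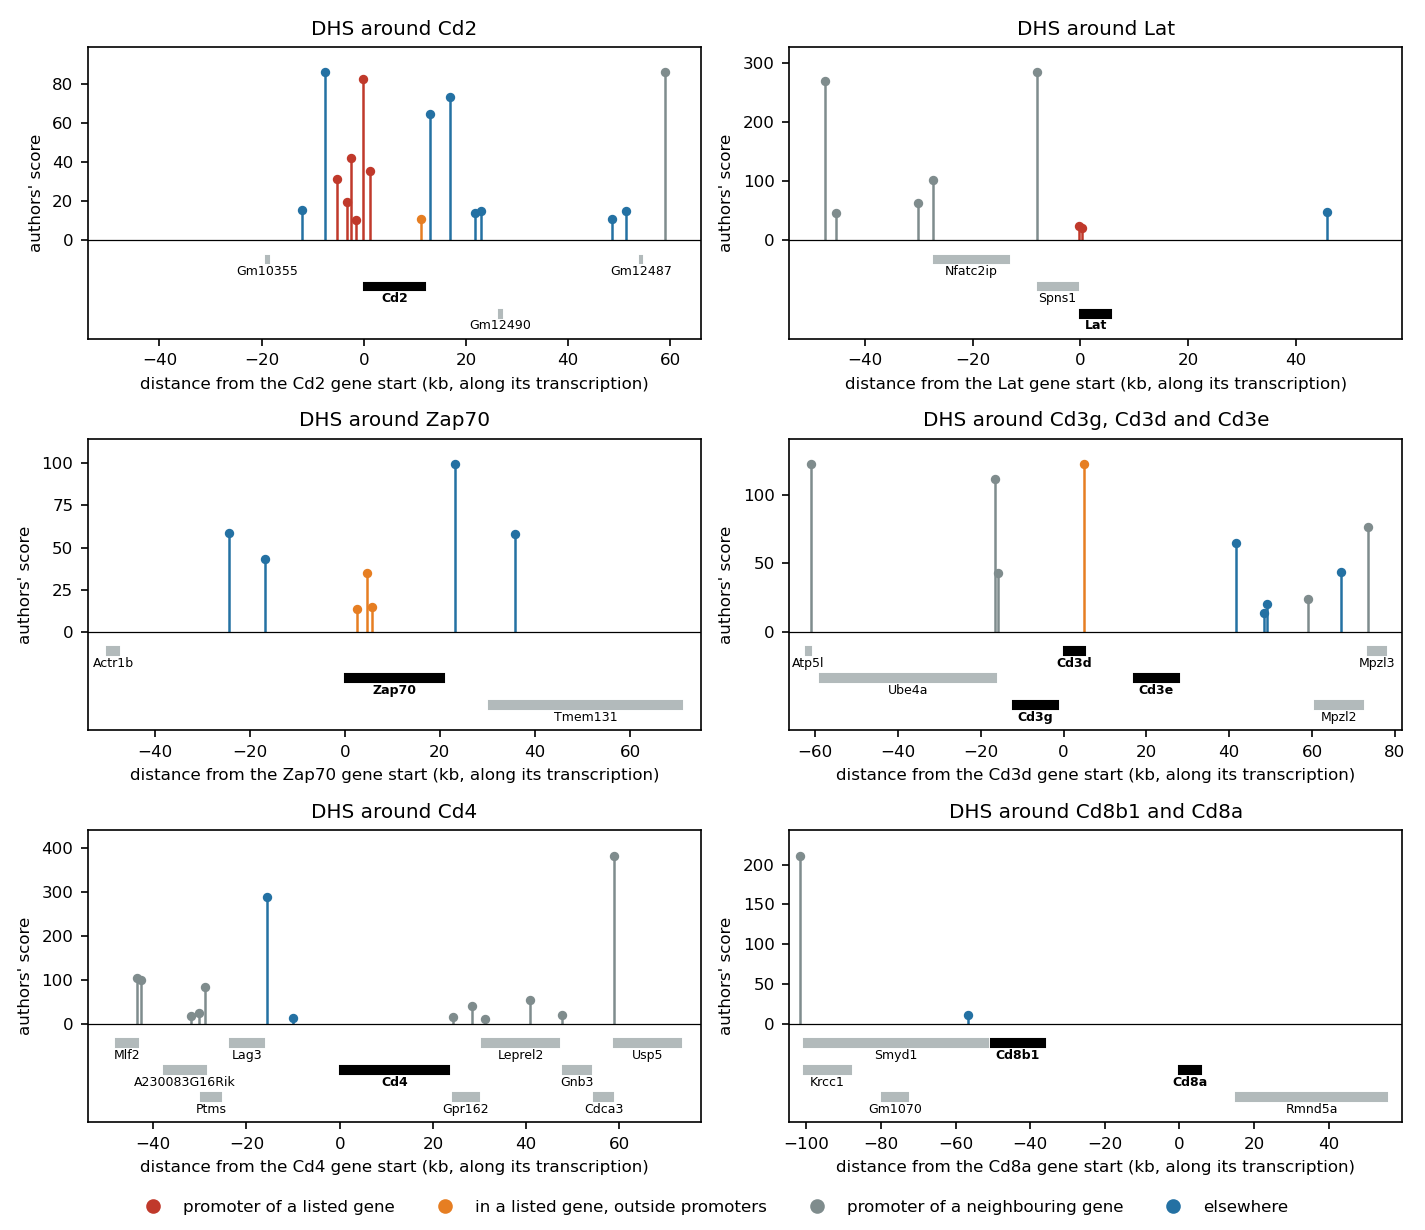
DHS around the 9 genes, at their distance from the gene start in kb along transcription (x axis) and with the authors' score as height (y axis, a separate scale in each panel). Black bars are the 9 genes and grey bars are other genes reported here; red and orange mark DHS in promoters and bodies of the 9 genes, grey those in promoters of neighbours and blue the rest. DHS cluster over Cd2, stand at the 3′ end of Cd3d and in Zap70, and are absent over Cd4, Cd8b1 and Cd8a.

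ZAP-70 is the cytoplasmic kinase that binds the phosphorylated CD3 and zeta chains; some B cells also make it. Zap70 (chr1:36818695-36839663) had no promoter DHS, and its start was 2272 bp from the nearest DHS. That DHS (chr1:36820967-36821424) lay in intron 1 with a score of 13.3. It was the first of 3 in the same intron, the others scoring 34.65 (chr1:36823009-36823861) and 14.9 (chr1:36824184-36824627). Their centres were 2.50, 4.74 and 5.71 kb past the start, so even the first began past the promoter window. Upstream, the 2 intergenic DHS at 24.3 and 16.8 kb scored 58.7 and 43.5. Downstream, an intergenic DHS at 23.3 kb past the start, beyond the gene end (chr1:36841390-36842560), scored 99.6, more than 94.9% of distal DHS, and one in an intron of Tmem131 scored 58.3. No promoter of a neighbour held a DHS in this window, and thus all 7 DHS were outside promoters. The 4 outside the gene all scored above the median of the list, 32.65, and of those in intron 1 the middle one did. The central 300 bases of the highest are shown, with a TATA type and an Ikaros type word in capitals.
Zap70 downstream DHS, centre, chr1:36841826-36842125, plus strand: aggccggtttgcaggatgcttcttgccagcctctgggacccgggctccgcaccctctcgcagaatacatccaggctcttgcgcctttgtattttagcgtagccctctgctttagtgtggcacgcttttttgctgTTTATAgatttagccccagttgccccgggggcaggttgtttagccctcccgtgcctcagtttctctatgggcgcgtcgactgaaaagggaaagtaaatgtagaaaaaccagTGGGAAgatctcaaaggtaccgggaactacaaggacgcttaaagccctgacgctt

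LAT is the membrane scaffold that gathers phospholipase C-gamma and adaptors once ZAP-70 has phosphorylated it. Lat (chr7:133507346-133513057) had a pair of narrow DHS on either side of its start, 75 bp apart. The first (chr7:133512633-133513055) covered exon 1 in part and scored 21.4, and the second (chr7:133513131-133513557) lay before the gene and scored 24.5. The start was 2 bp outside the first. Both were below the median score of 53.3 of all promoter DHS, and 25.9% of promoter DHS scored less than the higher of them. The end of Spns1 lies just upstream of Lat, but neither DHS was in the promoter of another gene. The rest of the window held promoter DHS of neighbours, among them 1 at Spns1 (284) and 2 at Nfatc2ip (102 and 62.5), and 1 distal DHS 45.7 kb past the Lat start with a score of 47.0.

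CD2 is an adhesion and costimulatory receptor of T and NK cells that binds CD48 in the mouse, where B cells carry it too. Cd2 (chr3:101079822-101091862) was the gene with most DHS, 16 in its window. Its start was covered by a DHS (chr3:101091194-101092756) with a score of 82.2, above that of 79.3% of all DHS and 65.0% of promoter DHS. This DHS also overlapped exons 1 and 2. A second promoter DHS lay in intron 2 with a score of 35.6, and 4 more before the start scored 10.4, 42.1, 19.4 and 31.4 in order of distance. Farther upstream were DHS at 7.65 kb with a score of 85.6 (chr3:101098961-101100060) and at 12.1 kb with 15.6. The gene body had 1 DHS outside the promoter, in intron 4, with a score of 11.1.

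Past the 3′ end of Cd2, where the human gene has a known locus control region, 2 DHS of higher score followed. They were at chr3:101078122-101079608 with a score of 64.3 and at chr3:101074341-101075719 with 73.2. Then came DHS scoring 13.9 and 15.1, and after a gap of 25137 bp those scoring 11.0 and 14.7 and one in the promoter of the pseudogene Gm12487, with 85.8. With gaps under 10 kb, 13 of the 16 DHS formed 1 run of 35.6 kb (chr3:101068641-101104224) with Cd2 as its only protein-coding gene. The median score of the run was 31.4, close to that of the whole list, and 7 of the 16 DHS reached the median of the list. The DHS around Cd2 thus ranked higher by number than by score.

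To set the windows beside those of all genes, DHS were counted per Mb. Across all protein-coding genes the median was 33.9 DHS per Mb, with quartiles of 6.63 and 69.2. Cd2 had 143 DHS per Mb, above 96.7% of genes, and Cd4 105, above 89.4%. Cd3e (81.2) and Lat (75.7) were also above the upper quartile, while Zap70 (57.9), Cd3d (57.0) and Cd3g (54.1) lay between the median and that quartile, Cd8b1 (17.4) was under the median and Cd8a was at 0. Leaving out promoters of other genes, the median of all genes was 18.2 (quartiles 0 and 45.2). Cd2 rose to 165 by this measure, above 99.4% of genes, and Cd4 dropped to 41.0, above 72.0%. Cd3e had 65.9, Zap70 61.7, Cd3d 50.7, Lat 40.6 and Cd3g 35.9. By this measure 7 of the 9 genes were above the median of all genes and both Cd8 genes were below it.

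**Figure D2:**
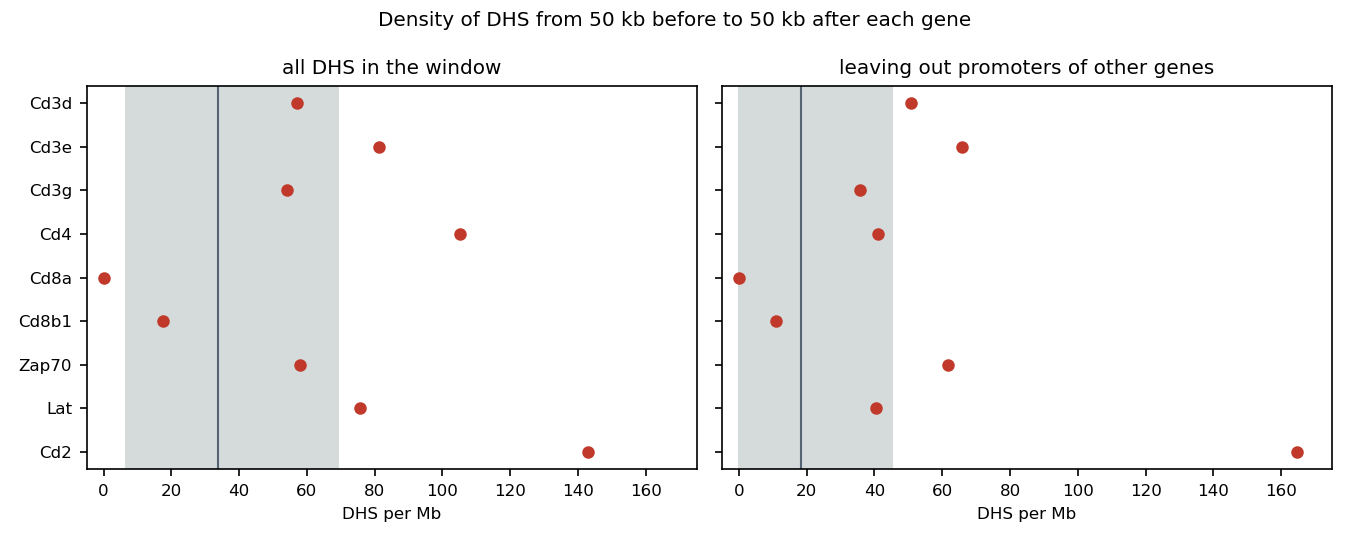
DHS per Mb (x axis) from 50 kb before to 50 kb after each of the 9 genes (y axis), for all DHS and without those in promoters of other genes. The line is the median and the grey band the quartiles of all protein-coding genes; Cd2 is at 143 and 165 DHS per Mb, Cd8a is at 0 in both panels, and Cd4 drops from 105 to 41.0.

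The 56 DHS fell into 8 in promoters of the 9 genes, 5 in their bodies outside promoters, 23 in promoters of other genes and 20 elsewhere. The 8 promoter DHS, all at Cd2 and Lat, had scores from 10.4 to 82.2 with a median of 27.9, beside a median of 53.3 for all promoter DHS. The 5 in gene bodies ranged from 11.1 to 122 with a median of 14.9, beside 24.3 for all distal DHS. The 20 elsewhere had a median of 43.5, and 11 of them reached the median of the whole list. The 23 in promoters of neighbours had a median of 76.3, and 17 reached it. In the windows of T cell genes, the lowest medians were thus those of the DHS in the genes themselves. These values describe 1 library, and DHS of 1 locus are not replicates of each other.

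**Figure D3:**
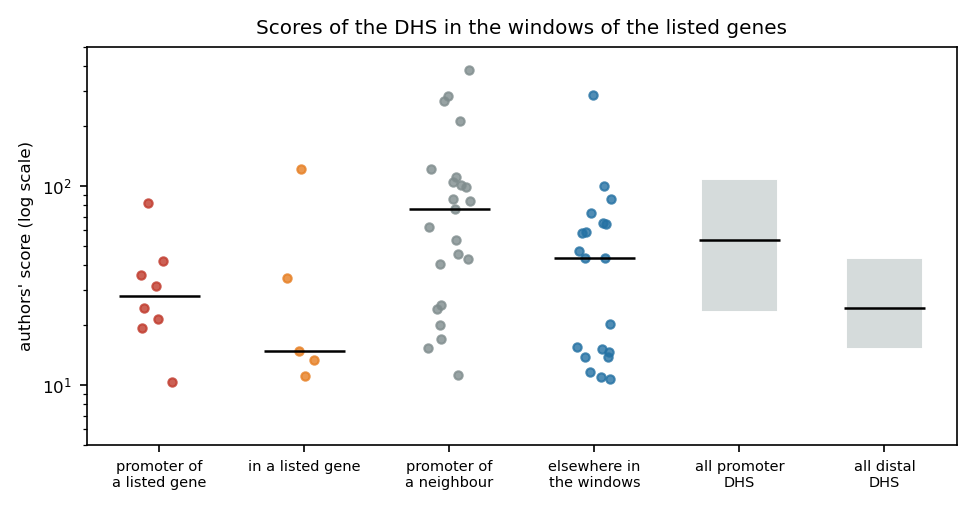
Authors' score (y axis, log scale) of each of the 56 DHS by place, with the median as a line. Grey boxes give the quartiles of all promoter and all distal DHS; the 8 DHS in promoters of the 9 genes (median 27.9) lie mostly under the median of all promoter DHS (53.3), and 1 DHS elsewhere, upstream of Cd4, reaches 288.

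The words were also counted over the 9 promoters (250 bases before to 50 after the start) and the central 300 bases of the 56 DHS. The Ikaros type word was present in 6 promoters (Cd3e, Cd3g, Cd8a, Zap70, Lat and Cd2), beside 24.3% of all promoters. CAGGTG was in 4 (Cd3d, Cd3e, Cd3g and Zap70), beside 19.95%, and CAGCTG in 3 (Cd3g, Cd8a and Lat), beside 15.2%. The TCF/LEF type word was in those of Cd3d and Cd8b1 (3.47% of all promoters), the GATA word in that of Cd3g (10.3%), and the cAMP element in that of Zap70 (2.33%). The PU.1 type, ETS type, Runx and TATA words were in none, beside 3.12, 4.70, 5.15 and 13.4% of all promoters. Of the 56 DHS centres, 4 held the PU.1 type word (7.14%, beside 3.61% of all DHS centres), 2 the ETS type (3.57%, beside 1.68%), 4 the Runx word (7.14%, beside 6.81%), 13 CAGCTG (23.2%, beside 17.5%), 16 CAGGTG (28.6%, beside 24.1%), 15 the Ikaros type (26.8%, beside 25.6%), 5 the GATA word (8.93%, beside 11.2%), 5 the TCF/LEF type (8.93%, beside 3.77%), 2 the TATA word (3.57%, beside 11.2%) and 0 the cAMP element (beside 0.680%). None of these shares rests on more than 16 DHS, and those of the PU.1, ETS, Runx, GATA, TCF/LEF and TATA words rest on at most 5.

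The constant parts of the antigen-binding chains are encoded by Trac and by Trbc1 and Trbc2, and only these parts were looked at here. Trac (chr14:54840196-54842772) had 1 DHS inside it, with a score of 8.58, higher than that of 1.98% of all DHS. Downstream of it, towards Dad1, the stretch that carries the known locus control region of this gene held DHS scoring 13.98, 306, 211, 161 and 73.8. The one with a score of 306 lay 3182 bp past Trac and exceeded 99.1% of all DHS. Promoter DHS of Dad1 and Abhd4 followed, with 130, 138 and 34.3. Trbc1 and Trbc2 had no promoter or gene-body DHS, and the only DHS within 50 kb of them was 5620 bp past Trbc2 with a score of 48.4. As at Cd3d and Cd4, the DHS of high score here lay away from the gene start.

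Among other genes of T cell receptor signalling, a promoter DHS was the more frequent state. Of 29 such genes, 21 had a promoter DHS (72.4%, interval 52.8 to 87.3%, beside 57.0% of all genes), and 24 had one in the gene body (beside 57.9%). The first interval overlaps that of the 9 genes. Among the 8 without were Trat1 (a receptor-associated adaptor), Sla2 (an inhibitory adaptor), Themis (a factor of thymocyte selection), the costimulatory and inhibitory receptors Cd28, Icos and Ctla4, and the surface protein Thy1. Of these, Sla2 had 3 DHS in its gene body and Ctla4 2, while Trat1 and Themis had 0 DHS within 50 kb. Among the 21 were genes that B cells use as well, such as Vav1, a guanine nucleotide exchange factor, with a score of up to 239, and Rasgrp1, an activator of Ras, with 292.

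Cd2 has 9 relatives in the list of its receptor family, of which 8 had a promoter DHS (88.9%, interval 51.8 to 99.7%) and Slamf8 had none. The interval takes in the 57.0% of all genes. The highest promoter scores were 28.5 at Cd48, the ligand of CD2 in the mouse, 33.1 at Cd84, 20 at Cd244, 51.96 at Ly9, 57.1 at Slamf1, 111 at Slamf6, 68.1 at Slamf7 and 57.4 at Slamf9. The value of 82.2 at Cd2 lies between those of Slamf7 and Slamf6.

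Marker genes of several cell types were counted in the same way. All 10 B cell markers had a promoter DHS (interval 69.2 to 100%), with highest scores per gene from 83.97 to 332 and a median of 143. Among them were Cd79a, Cd79b, Ms4a1, Cr2, Cd22, Pax5, Blk, Cd74 and Ebf1, which matches the B cell label. The only promoter DHS of Cd74 (332) also lay in another gene's promoter, and 9 of the 10 B cell markers had one that did not. Of 10 further T cell markers, 7 of which are also in the signalling list, 6 had one (60.0%, interval 26.2 to 87.8%), a share close to the 57.0% of all genes. These were Cd247, the zeta chain gene (32.8), Lck (92.8), Cd5 (97.7), Cd6 (26.6), and the transcription factor genes Tcf7 (38.2) and Gata3 (96.0). All 3 promoter DHS of Cd5 also lay in another gene's promoter, and 5 of the 10 had one that did not. Cd28, Thy1 and Bcl11b had none, and Bcl11b, a factor that T cells need, had 0 DHS within 50 kb. For all genes with a promoter DHS, the median of the highest score was 101.

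Of 8 NK cell markers, Klrb1c (25.96) and Prf1 (16.1) had a promoter DHS (interval 3.19 to 65.1%). Of 10 myeloid markers 6 had one, again close to the 57.0% of all genes, Itgam (18.2), Cebpa (57.3), Cd14 (51.1), Adgre1 (41.1), Flt3 (46.8) and Csf3r (12.3), and of 6 erythroid markers 2 did, Klf1 (178) among them. The Klf1 and Flt3 DHS were also in the promoter of another gene. In the T, NK, myeloid and erythroid lists, the highest promoter score of each gene with such a DHS was below the median of 101, except at Klf1, as were those at Lat and Cd2. Among the B cell markers only that of Cd22 (83.97) was below it. Cd3e, Cd3g, Cd4, Cd8a and Cd8b1 had neither a promoter nor a gene-body DHS. Cd3d and Zap70 had a gene-body DHS, that of Cd3d with a score of 122, and Lat and Cd2 had both kinds. Whether T cells among the selected cells gave rise to any of the DHS at Cd3d, Zap70, Lat, Cd2 or Trac was not tested, since there is 1 library and no T cell sample.

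**Figure D4:**
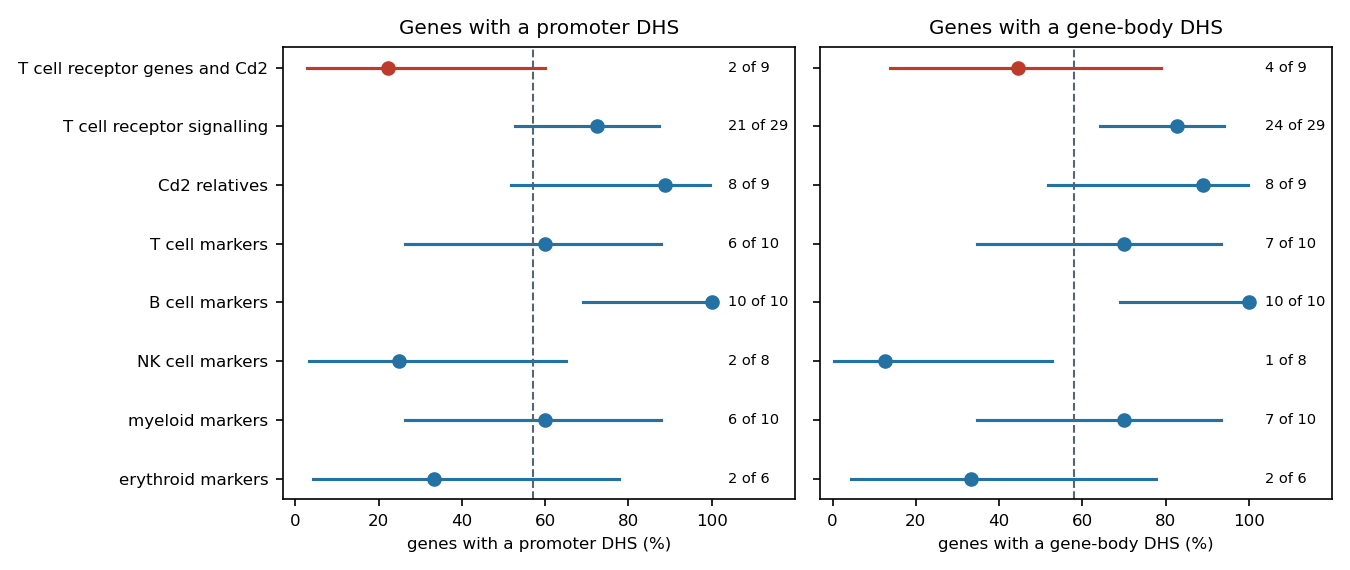
Share of genes (x axis, %) with a promoter DHS and with a gene-body DHS in each list (y axis), with exact binomial 95% intervals as bars. The dashed lines are the shares of all protein-coding genes, 57.0 and 57.9%; the T cell receptor genes with Cd2 are at 2 of 9 and 4 of 9, and the B cell markers at 10 of 10 in both.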

How the data were processed

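DNase-seq was carried out on B220-selected splenic B cells, with 1 DNaseI and 1 input library. The submitters' processing notes name BWA 0.6.2, SAMtools and mm9. The deposited peak list gives a position and a score per peak, and the authors' score has no stated scale. Peak names are those of MACS. The study's methods state a version and settings of it for ChIP-seq, but those for the DNaseI peaks are not given in the sources used here. A peak narrower or weaker than the caller's limits is not in the list, which holds no read counts. Scores ran from 5.05 to 619.

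Peaks were placed on GENCODE M1 (mm9 positions counted from 1, at least 1 bp of overlap, promoters from 5 kb before to 2 kb after a TSS). One peak passed a chromosome end. A start was CpG-rich when the 1000 bp around it had at least 55% GC and a CpG ratio of at least 0.6. The table of promoters on a later build was not used. Python 3.11.15, pandas 2.3.3, numpy 2.4.6, scipy 1.17.1 and matplotlib 3.10.9 were used, and the overlap counter was tested on simulated data. With 1 library nothing was tested, and exact binomial (Clopper-Pearson) 95% intervals cover counting error only. The members and lists were chosen with earlier results of these data known. All 9 genes and every neighbour with a promoter DHS in a window are named. Of each list, the genes with a promoter DHS are named where 10 or fewer have one, and otherwise those without, and Vav1 and Rasgrp1 were added after their values were seen. The gene Tespa1 is annotated as 5830405N20Rik, and 1 listed gene, Trdc, was not matched and not analysed here. Some list members and neighbours are counted but not reported here by name.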

Additional observations from a re-analysis of the deposited data

How the results depend on the processing

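Alternatives were a score at or above the median of the list, merging of peaks under 500 bp apart, the centre of the peak inside the window, a promoter of 1 kb on each side, promoters of protein-coding genes only, flanks of 20 and 100 kb, covered bases, percentiles within a class, and whole DHS for the word counts. Of the recomputed values, 62 were classed as close to the reported ones and 7 as moved. The first class is a broad one. With scores at or above the median it took in a fall from 4 to 3 of the 9 genes with a gene-body DHS. It also took in falls from 21 to 16 signalling genes and from 6 to 4 myeloid markers with a promoter DHS. With scores at or above the median, 1 of the 9 genes kept a promoter DHS (Cd2), the DHS near the 9 genes fell from 56 to 33, those outside promoters of other genes from 33 to 16, and the NK markers with a promoter DHS from 2 to 0. Flanks of 20 kb gave 33 DHS and flanks of 100 kb gave 90. The narrow promoter left 1 NK marker with a DHS. These follow from the construction of each alternative. No paired analysis was possible because there is 1 library without replicates. Depth is unknown, so too few reads and closed chromatin cannot be told apart where no DHS was called.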
